A study of Mus musculus with 24 samples.

Results

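Muscle atrophy ligases and FoxO factors are 8 genes, Fbxo32, Trim63, Fbxo30, Fbxo40, Foxo1, Foxo3, Foxo4 and Klf15, taken by symbol from the 24043 gene symbols of the deposited expression table. All 8 had a row. They were followed in C2C12, an established mouse myoblast line whose cells divide as single cells and can fuse into multinucleated myotubes when serum is reduced. The 4 groups were growth medium (DMEM with 10% fetal bovine serum) and differentiation medium (DMEM with 2% horse serum and an insulin, transferrin and selenium supplement), each at 21% oxygen (normoxia) or 2% oxygen (hypoxia). Each group had 2 RNA-seq libraries, called A and B, which the submitters describe as biological replicates. Growth medium also held penicillin and streptomycin, the labels name no genetic change, and how many days the cells spent in differentiation medium is not given in the sources used here. Of 24 samples in the series, the 8 RNA-seq libraries were used, and the 8 libraries of H3K27me3 chromatin and their 8 inputs were not analysed here. Levels are FPKM, fragments scaled to transcript length and to the mapped fragments of the library, which allow genes to be compared per length.

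Muscle atrophy, the loss of muscle protein in fasting, disuse or disease, works largely through the ubiquitin-proteasome system, in which a ligase attaches ubiquitin to a protein and the proteasome then degrades it. Fbxo32 (atrogin-1, also called MAFbx) is the substrate-binding F-box subunit of a cullin-based SCF ligase, and Trim63 (MuRF1) is a RING-finger ligase of the sarcomere; both are the standard markers of atrophying muscle. The FoxO factors are forkhead transcription factors that AKT holds in the cytoplasm while insulin or IGF1 is present and that enter the nucleus and activate both ligase genes when that signal falls. KLF15 is a glucocorticoid-induced transcription factor that acts on the same ligase genes and on amino acid breakdown.

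Trim63 and Fbxo32 moved in opposite directions in differentiation medium at 21% oxygen: Trim63 rose to 37.3 ± 0.578 FPKM (SD, n = 2) and Fbxo32 fell to 5.68 ± 0.573. At 2% oxygen Fbxo32 fell as well, but Trim63 was at 0 to 3 fragments per library in both media. Foxo1 and Foxo3 were higher at 2% oxygen in both media, the condition in which Trim63 was lowest. Klf15 was higher at 2% oxygen in growth medium and lower at 2% oxygen in differentiation medium.

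**Figure D1:**
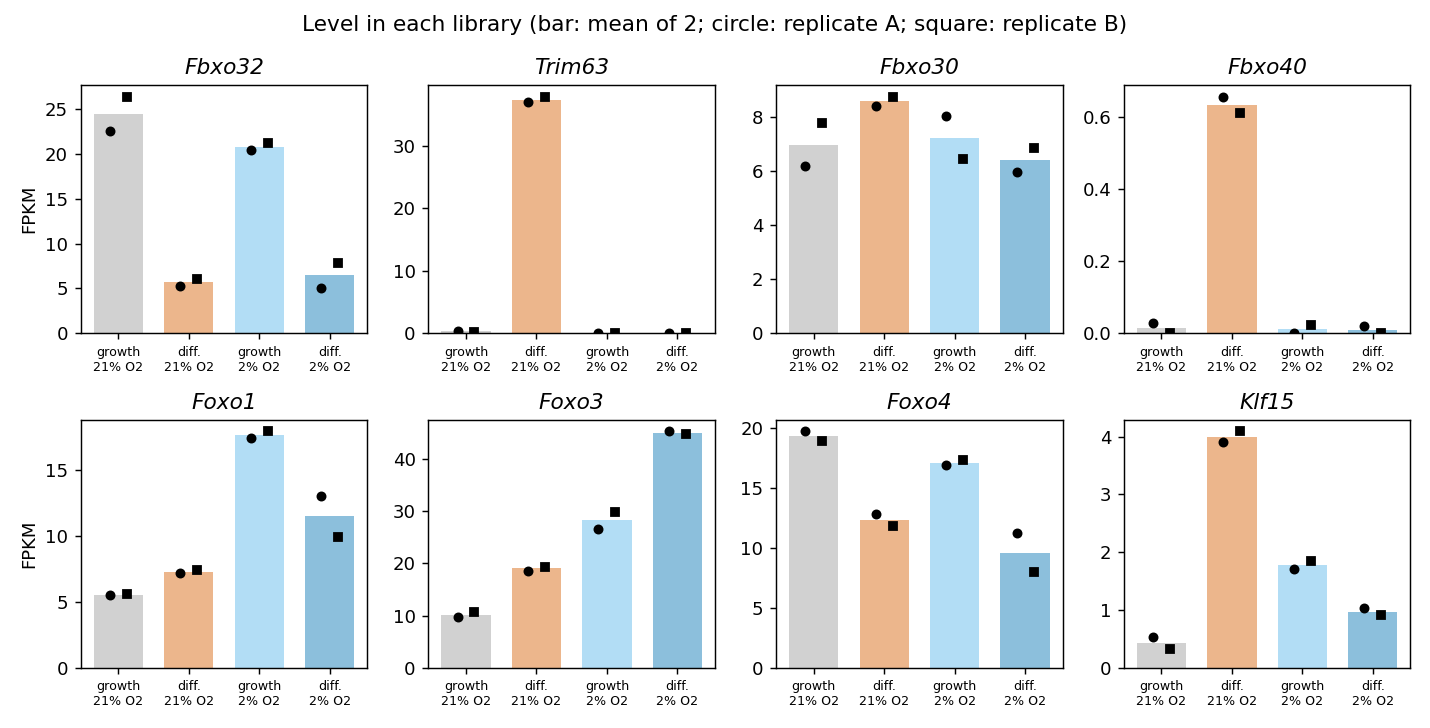
Level of each gene in FPKM (y axis, linear, a separate scale for each gene) in the 4 groups, with the mean of 2 libraries as a bar, replicate A as a circle and replicate B as a square. Trim63 and Fbxo40 stand above the other groups in normoxic differentiation medium, Fbxo32 is low in both differentiation groups, and Foxo3 climbs from 10.1 to 44.9 FPKM over the groups.

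Promoter sequence is shown for Trim63, the gene with the widest range, and for Foxo1, Foxo3 and Klf15, which differed with oxygen in both media. Each is the 250 bases before the annotated transcript start, 5′ to 3′ on the gene's strand, from RefSeq on GRCm38.p6. Of the 8 genes, Trim63, Fbxo30, Fbxo40, Foxo1, Foxo3 and Klf15 matched the promoter table. Capitals mark every match, on either strand, to GTAAACA (the FoxO consensus), AGAACA (a glucocorticoid receptor half-site), CANNTG (the E-box that MyoD and other bHLH factors bind) and ACGTG or GCGTG (the core of the hypoxia response element).
Trim63, chr4:134314870-134315119, + strand: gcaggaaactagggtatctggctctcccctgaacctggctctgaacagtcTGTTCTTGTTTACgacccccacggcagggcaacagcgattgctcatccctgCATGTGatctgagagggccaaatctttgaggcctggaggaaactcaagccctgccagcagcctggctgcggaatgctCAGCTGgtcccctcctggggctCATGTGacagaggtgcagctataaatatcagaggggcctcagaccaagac
Foxo1, chr3:52268087-52268336, + strand: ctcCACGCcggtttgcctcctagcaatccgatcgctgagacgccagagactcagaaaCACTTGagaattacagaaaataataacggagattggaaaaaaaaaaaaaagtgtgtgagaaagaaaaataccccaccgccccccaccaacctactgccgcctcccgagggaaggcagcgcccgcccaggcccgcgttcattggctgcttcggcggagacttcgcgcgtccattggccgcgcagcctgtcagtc
Foxo3, chr10:42276696-42276945, - strand: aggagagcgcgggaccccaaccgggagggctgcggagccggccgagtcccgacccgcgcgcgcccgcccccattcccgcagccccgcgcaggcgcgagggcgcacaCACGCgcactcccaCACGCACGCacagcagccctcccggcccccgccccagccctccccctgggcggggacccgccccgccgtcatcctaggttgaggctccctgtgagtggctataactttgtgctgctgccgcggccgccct
Klf15, chr6:90462326-90462575, + strand: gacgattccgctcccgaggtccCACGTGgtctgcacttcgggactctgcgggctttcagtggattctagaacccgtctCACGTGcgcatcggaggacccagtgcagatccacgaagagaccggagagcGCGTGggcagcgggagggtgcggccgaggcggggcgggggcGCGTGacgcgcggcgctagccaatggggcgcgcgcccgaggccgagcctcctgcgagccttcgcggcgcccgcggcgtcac

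The Trim63 window held a FoxO match starting 194 bases before the start, directly after a glucocorticoid half-site that began at 200, and E-boxes at 149, 72 and 50 bases. The Foxo3 window held 3 GCGTG matches on the reverse strand, at 144, 130 and 126 bases, and the Foxo1 window held 1 at 247 and an E-box at 193. In Klf15 an E-box that also reads as a hypoxia core lay at 228 and 172 bases, with GCGTG at 122 and 81. Of 32851 windows of the same length over all genes of the table, 3.17% held GTAAACA, 16.1% AGAACA, 66.2% an E-box and 38.6% ACGTG or GCGTG. The FoxO consensus was the least frequent of these, and a match is a description of the sequence, not evidence of binding.

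Values were tested with limma on log2(FPKM + 1) over the 12389 genes that reached a mean of 1 FPKM in at least 1 group, with 0.05 as the threshold for the Benjamini-Hochberg adjusted p. Changes are differences on that scale ± SE and understate the change of genes near or below 1 FPKM. Of the 8 genes, 7 entered the test; Fbxo40 stayed under 1 FPKM in every group. The libraries had 14917 to 15672 genes above 0 and relative depths of 0.633 to 1, and the shallowest and the deepest were the B and A libraries of hypoxic differentiation medium. Those 2 libraries also differed most from each other, with 613 genes over 2-fold apart against 56 to 71 in the other groups. The median change of all tested genes was -0.20 for the medium at 21% oxygen, 0.07 at 2% oxygen, -0.14 for hypoxia in growth medium, 0.15 for hypoxia in differentiation medium and 0.27 in the interaction. Median-of-ratios scaling brought all 5 medians within 0.03 of 0, and small changes are read against these shifts. The share of calls that were higher was 38.4%, 56.9%, 32.6%, 57.5% and 65.5% in that order. After median-of-ratios scaling it was 53.2%, 52.1%, 45.2%, 47.2% and 47.3%, while upper-quartile scaling gave 49.1% for hypoxia in growth medium and 53.8% for the interaction. Shares of all genes given below are those of the deposited scale, also beside counts after another scaling.

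The identity of the cells was checked with marker lists. The 6 myotube markers (Myog, Ckm, Myh3, Tnnt3, Acta1 and the fusion gene Tmem8c) summed to 25.2 to 32.9 FPKM in normoxic growth medium, 7628 to 7646 in normoxic differentiation medium, 3.43 to 3.80 in hypoxic growth medium and 9.72 to 17.4 in hypoxic differentiation medium. The 6 myoblast markers summed to 482 to 554, 806 to 819, 127 to 135 and 69.3 to 98.5 in the same groups. They did not move together with the medium at 21% oxygen. There 2 were called higher and 2 lower (all genes 25.5% and 41.0%), or 4 and 2 after median-of-ratios scaling. The means rose for Des (211 to 479 FPKM), Myod1 (123 to 176), Myf5 (20 to 29.9) and Cdh15 (71.8 to 86.8). Those of Pax7 (27 to 15.5) and Vcam1 (65.4 to 25.4) fell. Myotube markers were thus high in differentiation medium at 21% oxygen and not at 2%. Markers of proliferating cells summed to 174 to 186, 31.2 to 31.5 and 88.8 to 100 FPKM in the first 3 groups and to 26.3 in A and 150 in B of hypoxic differentiation medium. Adipocyte markers summed to 1.90 to 6.55 FPKM, mostly Pparg, with Cidec and Plin1 listed at 0 in every library. Osteoblast markers summed to 6.74 to 104, with Ibsp at 0 in 6 libraries. Bglap was 93.1 and 75.5 FPKM in normoxic differentiation medium and 0.533 to 6.66 in the other libraries. Runx2 was 5.77 to 16.8 FPKM, and Sp7 and Alpl reached at most 0.14 and 0.23. Fibroblast markers summed to 153 to 331, mostly the collagen gene Col1a2, with Thy1 at 0 in 7 libraries. Group means were 18.8 to 44.6 FPKM for Col1a1, 0.858 to 11.2 for Pdgfra and 3.41 to 8.88 for Dcn.

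Trim63 was 0.295 FPKM in library A and 0.228 in B of normoxic growth medium, 36.9 and 37.8 in normoxic differentiation medium, listed at 0 in both libraries of hypoxic growth medium, and 0.0769 and 0.0405 in hypoxic differentiation medium. Only the normoxic differentiation libraries were high. No libraries of different groups overlapped, but the hypoxic libraries held 0 to 3 fragments each, too few to tell the hypoxic groups apart. Low values of this gene were whole multiples of a common step, and the smallest whole numbers of fragments that gave all values were 8 and 8, 984 and 1262, 0 and 0, and 3 and 1 in the same order. A total of 3 fragments, the limit that a count of 0 allows, correspond to 0.0863 and 0.0915 FPKM in the hypoxic growth libraries. Trim63 rose with differentiation medium at 21% oxygen by 4.93 ± 0.09 (limma adjusted p 2.07e-07), a ratio of depth-adjusted fragments of 145 with a 95% exact counting interval of 89.3 to 255. In differentiation medium it was lower at 2% oxygen by a change of -5.18 ± 0.09 (adjusted p 1.46e-07), or 596-fold with an interval of 232 to 2188. These intervals cover counting error alone, and the 2 comparisons share the normoxic differentiation libraries. The medium had no detectable effect at 2% oxygen (0.08 ± 0.09, adjusted p 0.505), and the interaction, the medium response at 2% minus that at 21% oxygen, was -4.84 ± 0.13 (adjusted p 2.05e-06). In growth medium the change with hypoxia was -0.33 ± 0.09 (adjusted p 0.0242), a call that rested on 16 fragments against 0 and was lost without replicate A of normoxic growth medium (adjusted p 0.0948) or either hypoxic growth library (0.113 and 0.11).

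The myotube markers moved with Trim63 across the groups, and their part in its change was not tested. In bulk RNA, fewer cells of a type and less RNA per cell cannot be told apart. The other MuRF genes, Trim54 (MuRF3) and Trim55 (MuRF2), encode RING-finger proteins that form complexes with MuRF1 on the sarcomere and microtubules. Trim54 was 0.514 and 0.433 FPKM in growing cells and 49.7 and 52.0 in differentiation medium at 21% oxygen, and 0.0365 and 0.0386 in growing cells and 0.292 and 0.205 in differentiation medium at 2% oxygen. The hypoxic values are 1 fragment in each growth library and 9 and 4 in the differentiation libraries, a depth-adjusted ratio of 6.89 with a counting interval of 1.56 to 62.9. This medium response at 2% oxygen did not pass in the fit of all libraries on the log2(FPKM + 1) scale. It passed with a pseudocount of 0.1 (1.33 ± 0.21, limma adjusted p 0.00332) and with only the hypoxic libraries fitted (0.27 ± 0.05, adjusted p 0.044). The Trim54 interaction of -4.87 ± 0.14 (adjusted p 2.14e-06) was close in size to that of Trim63. Trim55 differed from both in growth medium: it was already at 4.29 and 4.78 FPKM in normoxia, where it made up 86.0% ± 2.63 of the MuRF mRNA, and fell to 0.398 and 0.324 at 2% oxygen (-2.02 ± 0.10, adjusted p 5.32e-05). In differentiation medium it was 29.2 and 28.5 FPKM in normoxia and 0.245 and 0.301 in hypoxia (-4.55 ± 0.10, adjusted p 2.58e-07). The summed MuRF level was 5.27 ± 0.240 FPKM in normoxic growth medium, 117 ± 1.68 in normoxic differentiation medium, 0.398 ± 0.0505 in hypoxic growth medium and 0.581 ± 0.0474 in hypoxic differentiation medium.

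**Figure D2:**
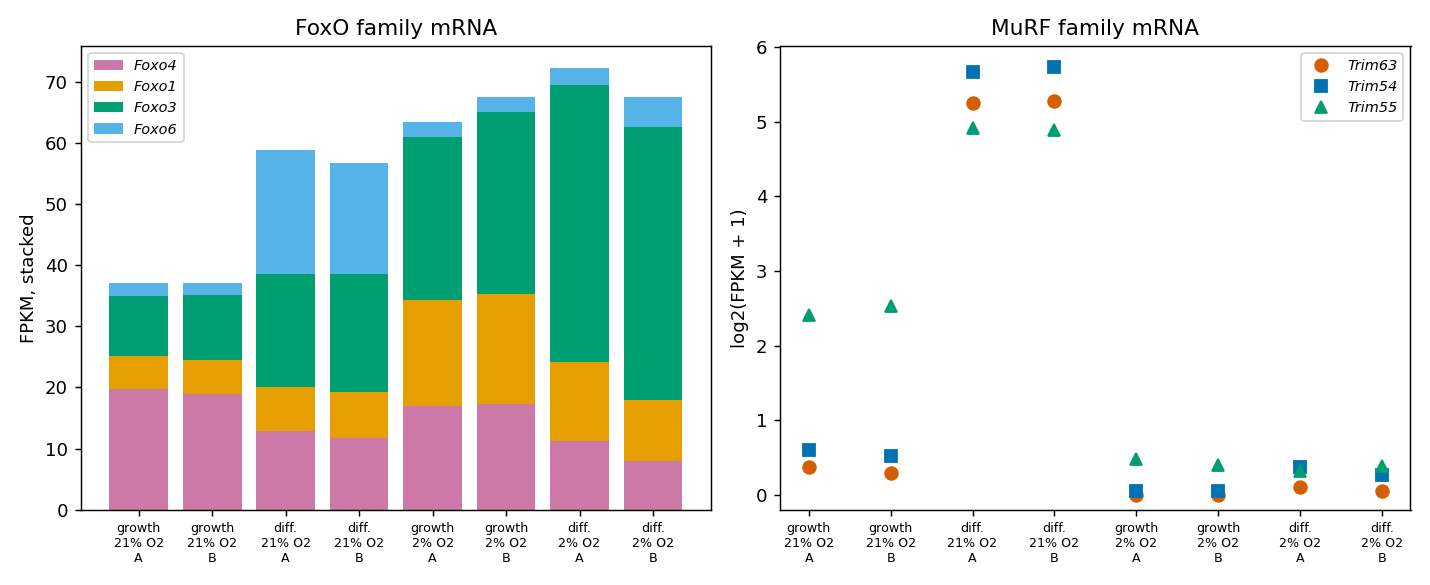
Left, FPKM of the 4 FoxO genes stacked for each of the 8 libraries (x axis, group and replicate letter). Right, log2(FPKM + 1) of the 3 MuRF genes in the same libraries: all 3 are high in normoxic differentiation medium and only Trim55 lies above 2 in normoxic growth medium.

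Fbxo32 was highest in growing myoblasts, at 22.6 and 26.4 FPKM in normoxia and 20.4 and 21.2 in hypoxia. In differentiation medium it was 5.27 and 6.08 FPKM in normoxia and 5.01 and 7.85 in hypoxia. The growth and differentiation libraries did not overlap at either oxygen level, while the 2 differentiation groups overlapped. Fbxo32 fell with differentiation medium at 21% oxygen (-1.93 ± 0.19, limma adjusted p 0.000144), a 4.32-fold lower mean, and at 2% oxygen (-1.58 ± 0.19, adjusted p 0.00143), a 3.24-fold lower mean. Oxygen made no difference past the threshold in growth medium (-0.22 ± 0.19, adjusted p 0.381) or in differentiation medium (0.13 ± 0.19, adjusted p 0.565), nor did the interaction pass it (0.35 ± 0.27, adjusted p 0.298). The value in differentiation medium turned with 1 library: it was -0.15 without replicate B of the hypoxic group and 0.41 (adjusted p 0.0279) without replicate A, and -0.04 after median-of-ratios scaling. Fbxo25, the closest relative of Fbxo32 and also an F-box gene, went another way. It fell from 16.6 and 16.5 to 5.91 and 6.11 FPKM with differentiation medium at 21% oxygen (-1.32 ± 0.09, adjusted p 2.75e-05) and rose from 17.8 and 15.9 to 29.1 and 27.5 at 2% oxygen (0.72 ± 0.09, adjusted p 0.00156), with an interaction of 2.04 ± 0.12 (adjusted p 4.44e-05).

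Fbxo30 (MUSA1), an F-box protein that acts in denervation atrophy and is restrained by BMP signalling, stayed within 5.95 to 8.75 FPKM over all 8 libraries. It was 6.17 and 7.79 in growing cells and 8.40 and 8.75 in differentiation medium at 21% oxygen, and 8.02 and 6.45 in growing cells and 5.95 and 6.86 in differentiation medium at 2% oxygen. The normoxic differentiation libraries were the highest, and the other 3 groups overlapped in order of their means. No contrast passed the threshold on the deposited scale, the nearest being hypoxia in differentiation medium (-0.37 ± 0.15, adjusted p 0.0617). After median-of-ratios scaling this value was -0.55 (adjusted p 0.011) and the change with medium at 21% oxygen 0.52 (adjusted p 0.0145), against 0.27 ± 0.15 (adjusted p 0.149) on the deposited scale. Upper-quartile scaling also brought both past the threshold (-0.42, adjusted p 0.0339, and 0.39, adjusted p 0.046).

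Fbxo40, a muscle-restricted F-box protein that targets the insulin receptor substrate IRS1, was at the edge of detection outside normoxic differentiation medium. It was 0.655 and 0.609 FPKM there, 0.0268 and 0 in normoxic growth medium, 0 and 0.0221 in hypoxic growth medium and 0.0186 and 0 in hypoxic differentiation medium. The values correspond to 24 and 28 fragments in normoxic differentiation medium and to 1 fragment or none in each other library. The ratio to normoxic growth medium was 53.9 with a counting interval of 9.25 to 2167, and the ratio to hypoxic differentiation medium was 55.2 with an interval of 9.48 to 2221. With no expression filter the fitted change with medium at 21% oxygen was 0.69 on the log2(FPKM + 1) scale, which compresses values this low.

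Foxo1, the factor most often tied to atrophy gene induction and to blocked myoblast differentiation, was 5.51 and 5.58 FPKM in growing cells and 7.19 and 7.37 in differentiation medium at 21% oxygen, and 17.4 and 17.9 in growing cells and 13.0 and 9.92 in differentiation medium at 2% oxygen. No groups overlapped, and both hypoxic groups lay above both normoxic groups. Foxo1 rose with hypoxia by 1.51 ± 0.13 in growth medium (limma adjusted p 0.000288), 3.18-fold, and by 0.58 ± 0.13 in differentiation medium (adjusted p 0.00649), 1.57-fold; the latter call was lost after median-of-ratios scaling (0.40, adjusted p 0.0588). Its response to the medium differed with oxygen (interaction -0.93 ± 0.18, adjusted p 0.00517). The change at 2% oxygen was -0.59 ± 0.13 (adjusted p 0.012), a call lost when only the hypoxic libraries were fitted (adjusted p 0.0702) and without replicate A (adjusted p 0.0643) or B (adjusted p 0.0766) of hypoxic growth medium. The value at 21% oxygen was 0.34 ± 0.13 (adjusted p 0.0514), which passed the threshold in 6 of the alternatives tried, both scalings among them.

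Foxo3, a FoxO factor that acts on both ubiquitin ligase and autophagy genes, rose in every contrast of medium and of oxygen. It was 9.73 and 10.6 FPKM in growing cells and 18.6 and 19.3 in differentiation medium at 21% oxygen, and 26.6 and 29.8 in growing cells and 45.2 and 44.7 in differentiation medium at 2% oxygen. No groups overlapped, and the 4 groups followed that order. Differentiation medium raised it by 0.84 ± 0.09 at 21% oxygen (limma adjusted p 0.000188) and by 0.66 ± 0.09 at 2% oxygen (adjusted p 0.00202). Hypoxia raised it by 1.39 ± 0.09 in growth medium (adjusted p 0.000107), 2.78-fold, and by 1.20 ± 0.09 in differentiation medium (adjusted p 3.79e-05), 2.37-fold. The interaction, -0.19 ± 0.12, missed the threshold (adjusted p 0.237) but passed it after median-of-ratios scaling (-0.50, adjusted p 0.0273).

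Foxo4 moved against Foxo3 with the medium. It was 19.7 and 18.9 FPKM in growing cells and 12.8 and 11.8 in differentiation medium at 21% oxygen, and 16.9 and 17.3 in growing cells and 11.2 and 7.96 in differentiation medium at 2% oxygen, and no groups overlapped. Its change with differentiation medium was -0.61 ± 0.15 at 21% oxygen (limma adjusted p 0.00968) and -0.79 ± 0.15 at 2% oxygen (adjusted p 0.00699). The first of these calls was lost after median-of-ratios scaling (-0.35, adjusted p 0.126), after upper-quartile scaling (-0.48, adjusted p 0.0512) and without replicate A of normoxic growth medium (adjusted p 0.0512) or replicate B of normoxic differentiation medium (adjusted p 0.0686). The call at 2% oxygen was lost when only the hypoxic libraries were fitted (adjusted p 0.0568) and without replicate B of hypoxic growth medium (adjusted p 0.0506). Hypoxia gave -0.17 ± 0.15 in growth medium (adjusted p 0.402) and -0.35 ± 0.15 in differentiation medium (adjusted p 0.0775), the latter past the threshold without replicate A of the hypoxic group (-0.57, adjusted p 0.00177) and after median-of-ratios scaling (-0.53, adjusted p 0.0358).

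The composition of the FoxO mRNA pool shifted with these changes. Foxo4 made up 55.1% ± 1.74 of the summed Foxo1, Foxo3 and Foxo4 level in normoxic growth medium and 14.4% ± 2.43 in hypoxic differentiation medium, while Foxo3 went from 29.0% ± 1.61 to 68.3% ± 4.49. The sum itself was 35.0 ± 0.0743 FPKM in normoxic growth medium and 38.6 ± 0.0742 in normoxic differentiation medium, against 62.9 ± 2.90 and 66.0 ± 4.77 in the hypoxic groups. Foxo6, a family member that stays largely nuclear and is best known in brain, was high in normoxic differentiation medium alone. It was 2.19 and 1.94 FPKM in growing cells and 20.2 and 18.3 in differentiation medium at 21% oxygen, and 2.46 and 2.47 in growing cells and 2.82 and 4.83 in differentiation medium at 2% oxygen. It rose with the medium at 21% oxygen by 2.72 ± 0.20 (limma adjusted p 3.87e-05) and had an interaction of -2.28 ± 0.28 (adjusted p 0.000729). With Foxo6 counted, the sum was 37.0 ± 0.104 FPKM in normoxic growth medium and 57.8 ± 1.43 in normoxic differentiation medium. It was 65.3 ± 2.91 in hypoxic growth medium and 69.8 ± 3.34 in hypoxic differentiation medium. Foxo6 was 33.3% ± 1.52 of the sum in normoxic differentiation medium.

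Klf15 was 0.534 and 0.321 FPKM in growing cells and 3.90 and 4.09 in differentiation medium at 21% oxygen, and 1.71 and 1.84 in growing cells and 1.03 and 0.912 in differentiation medium at 2% oxygen. The level was low throughout, and no groups overlapped. Differentiation medium raised Klf15 by 1.81 ± 0.11 at 21% oxygen (limma adjusted p 1.84e-05), and at 2% oxygen the change was -0.49 ± 0.11 (adjusted p 0.0127). The latter call was lost without replicate A (adjusted p 0.0558) or B (adjusted p 0.0787) of hypoxic growth medium. The response to the medium differed with oxygen (interaction -2.30 ± 0.15, adjusted p 6.41e-05). Hypoxia raised it by 0.96 ± 0.11 in growth medium (adjusted p 0.000849), and in differentiation medium the change was -1.34 ± 0.11 (adjusted p 6.31e-05). Klf9, another Krüppel-like factor that glucocorticoids induce, had the same 4 directions at higher levels. It was 4.40 and 5.16, 23.0 and 23.8, 13.6 and 12.4, and 5.50 and 6.59 FPKM in the same order of groups, with an interaction of -3.07 ± 0.17 (adjusted p 2.83e-05).

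**Figure D3:**
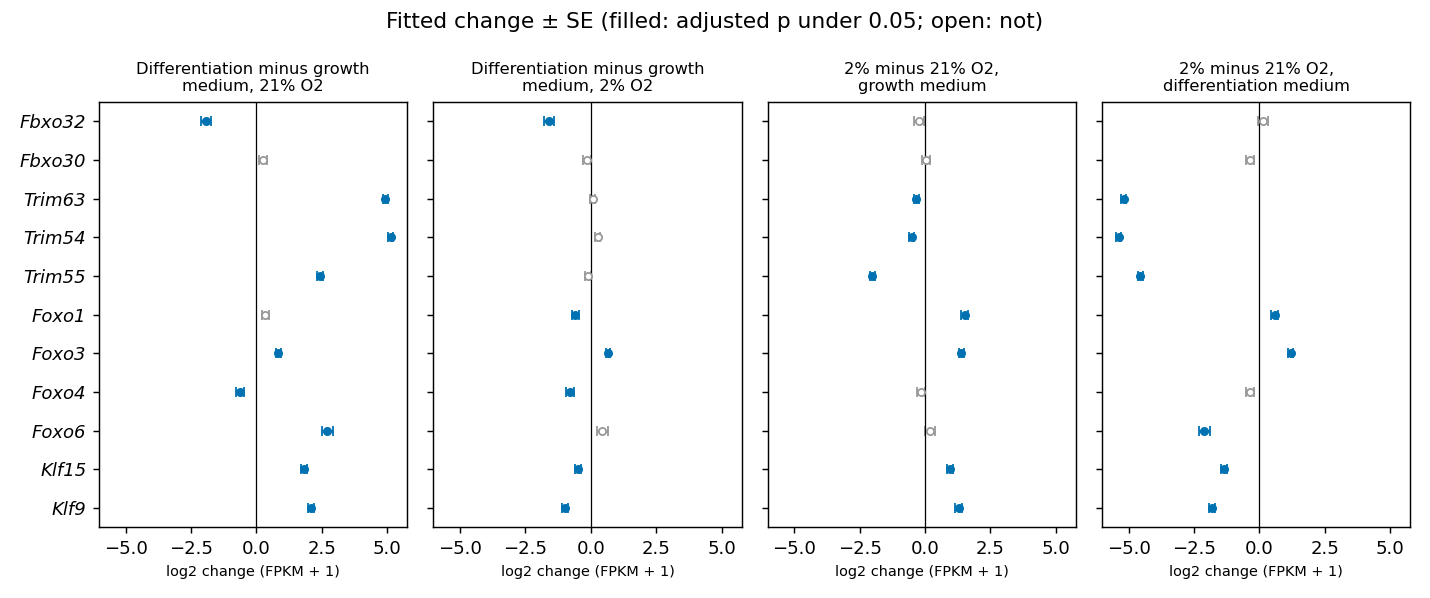
Fitted log2 change with its SE (x axis, log2(FPKM + 1) scale) for the 7 tested genes and 4 of their relatives in the 4 contrasts of medium and oxygen; filled points passed an adjusted p of 0.05. Trim63, Trim54 and Trim55 lie at 2.43 to 5.14 in the left panel and at -4.55 to -5.38 in the right panel, where Foxo1 and Foxo3 are on the other side of 0.

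Counted together, 5 of the 7 tested genes passed the threshold for the medium at 21% oxygen, 3 higher (Trim63, Foxo3, Klf15) and 2 lower (Fbxo32, Foxo4), where 66.5% of all tested genes passed, 25.5% higher and 41.0% lower. After either other scaling 5 were higher, Foxo1 and Fbxo30 added, and 1 lower, Fbxo32. The whole table shifted the same way: the share of calls that were higher went from 38.4% to 53.2% with median-of-ratios scaling and 45.5% with upper-quartile scaling. For the medium at 2% oxygen 5 of 7 passed, with Foxo3 higher and Fbxo32, Foxo1, Foxo4 and Klf15 lower, against a background of 40.9%, 23.3% higher and 17.6% lower. That count was 3 when only the hypoxic libraries were fitted, 3 without replicate A and 2 without replicate B of hypoxic growth medium; Fbxo32 and Foxo3 passed in each case. For hypoxia in growth medium 4 of 7 passed (Foxo1, Foxo3 and Klf15 higher, Trim63 lower), against 41.4%, 13.5% higher and 28.0% lower. In differentiation medium 4 of 7 passed (Foxo1 and Foxo3 higher, Trim63 and Klf15 lower), against 65.2%, 37.5% higher and 27.7% lower. Median-of-ratios scaling gave 1 higher (Foxo3) and 4 lower, with Fbxo30 and Foxo4 added, and upper-quartile scaling 2 higher and 3 lower. The interaction passed for Trim63, Foxo1 and Klf15, all negative, against 54.1% of all genes, 18.7% in that direction and 35.4% in the other. Median-of-ratios scaling added Fbxo30 and Foxo3 to the interaction, also negative, for 5 of 7. Leaving out replicate A of hypoxic differentiation medium added Fbxo32 (0.63) and Foxo4 (-0.40), again 5 of 7. With shares this high in the whole table, the number of genes past the threshold is not in itself a result about these genes.

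Proteasome subunits, the part of the pathway downstream of all ligases, moved with both medium and oxygen. All 31 listed subunits of the core and the regulatory particle were tested. With differentiation medium 24 rose and 2 fell at 21% oxygen (median 0.46, all genes -0.20), where 25.5% of all genes were called higher. At 2% oxygen 29 rose (median 0.70, all genes 0.07), where 23.3% were. With hypoxia 30 fell in growth medium (median -0.71, all genes -0.14), where 28.0% of all genes were called lower, and 22 in differentiation medium (median -0.61, all genes 0.15), where 27.7% were. The largest rises with medium at 21% oxygen were in the lid gene Psmd8 (75.4 ± 8.12 to 238 ± 2.42 FPKM), the catalytic subunit gene Psmb5 (96.8 ± 10.3 to 211 ± 7.82) and the ATPase gene Psmc4 (42.2 ± 3.83 to 89.4 ± 1.64), and the falls were those of Psmb1 (-0.28 ± 0.08) and Psma7 (-0.27 ± 0.09), neither of which passed after median-of-ratios scaling. In differentiation medium Psmd8, Psmb7 and Psma3 fell most with hypoxia, Psmb7 from 233 ± 1.67 to 108 ± 8.87 FPKM (-1.10 ± 0.10, limma adjusted p 0.000103). The list medians kept their sign after median-of-ratios scaling, at 0.73, 0.65, -0.57 and -0.81.

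The SCF core, the scaffold onto which Fbxo32, Fbxo30 and Fbxo40 dock, held 8 listed genes. With the medium at 21% oxygen 2 rose and 4 fell (all genes 25.5% and 41.0%), or 3 and 2 after median-of-ratios scaling, with a median of -0.17 that turned to 0.10. At 2% oxygen 6 rose (all genes 23.3%), or 4 after that scaling. Hypoxia lowered 5 in growth medium (all genes 28.0%), and in differentiation medium 3 were higher and 2 lower (all genes 37.5% and 27.7%), or 3 and 3 after scaling. The E2 gene Cdc34 had the widest change, from 30.0 ± 5.46 to 124 ± 4.94 FPKM with the medium at 21% oxygen (2.03 ± 0.21, limma adjusted p 0.000193) and 45.8 ± 14.0 in hypoxic differentiation medium. The RING subunit gene Rbx1 went the other way, from 64.7 ± 3.09 to 42.4 ± 0.427 FPKM, and was 84.2 ± 2.80 in hypoxic differentiation medium (0.97 ± 0.07 against normoxia, adjusted p 4.29e-05).

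Of 22 other ubiquitin genes studied in muscle, 4 rose and 9 fell with the medium at 21% oxygen (all genes 25.5% and 41.0%), and 2 rose and 4 fell at 2% oxygen (all genes 23.3% and 17.6%). After median-of-ratios scaling 7 rose and 7 fell at 21% oxygen. With hypoxia 3 were higher and 4 lower in growth medium (all genes 13.5% and 28.0%), or 6 and 4 after that scaling. In differentiation medium 9 were higher and 7 lower (all genes 37.5% and 27.7%), or 8 and 8. The ligase Fbxo21 (SMART), itself an atrophy ligase under FoxO control, fell from 10.1 ± 0.585 to 3.61 ± 0.0312 FPKM with the medium at 21% oxygen (-1.27 ± 0.10, limma adjusted p 6.08e-05), the same direction as Fbxo32. It was 15.7 ± 1.52 in hypoxic differentiation medium (1.85 ± 0.10 against normoxia, adjusted p 1.09e-05), where Fbxo32 did not differ past the threshold. Trim32, a ligase of thin filament and desmin proteins, was 8.70 ± 0.0815 and 18.4 ± 1.00 FPKM in the same groups (1.00 ± 0.08, adjusted p 6.14e-05). The ubiquitin-binding gene Zfand5, also induced in atrophy, fell with hypoxia from 22.0 ± 0.0712 to 8.02 ± 0.520 FPKM (-1.35 ± 0.10, adjusted p 3.80e-05), and the N-recognin Ubr2 from 30.0 ± 0.498 to 18.6 ± 2.88 (-0.67 ± 0.11, adjusted p 0.00191).

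Among 12 reported substrates and partners of the ligases, 7 rose and 2 fell with the medium at 21% oxygen (all genes 25.5% and 41.0%), and 4 rose and 1 fell at 2% oxygen (all genes 23.3% and 17.6%). Hypoxia lowered 7 in growth medium (all genes 28.0%), and in differentiation medium 10 were lower and 1 higher (all genes 27.7% and 37.5%). The thick-filament light chain genes Myl1 and Mylpf, whose proteins MuRF1 ubiquitinates, rose at 21% oxygen by 9.34 ± 0.28 (limma adjusted p 9.6e-07) and 8.55 ± 0.24 (adjusted p 7.51e-07). Eif3f, a translation initiation factor gene whose product atrogin-1 targets, fell with the medium at 21% oxygen from 120 ± 3.66 to 85.0 ± 0.439 FPKM and was 125 ± 18.1 in hypoxic differentiation medium (0.55 ± 0.10 against normoxia, adjusted p 0.00315), a call not made after median-of-ratios scaling. Irs1, the Fbxo40 substrate, fell from 24.6 ± 3.76 to 14.8 ± 0.547 FPKM at 21% oxygen (-0.69 ± 0.14, adjusted p 0.00398) and was 6.68 ± 1.03 in hypoxic differentiation medium (-1.04 ± 0.14 against normoxia, adjusted p 0.000595). The list holds sarcomere genes that are also myotube genes, and the myotube markers moved with it; their part was not tested.

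On the deposited scale FoxO target genes were called in both directions in each contrast of medium and of oxygen. In growth medium hypoxia left more of them higher than lower, unlike all genes. Of 18 in autophagy, 6 rose and 8 fell with the medium at 21% oxygen, near the 25.5% and 41.0% of all genes, or 7 and 5 after median-of-ratios scaling. At 2% oxygen 3 rose and 4 fell (all genes 23.3% and 17.6%). With hypoxia 7 were higher and 2 lower in growth medium (all genes 13.5% and 28.0%), or 8 and 0 after median-of-ratios scaling. The list median there was 0.16, or 0.29 scaled, against -0.14 and -0.03 for all genes. In differentiation medium 10 were higher and 4 lower (all genes 37.5% and 27.7%), or 8 and 4 after scaling, and the median was 0.33 against 0.15 for all genes. The 2 LC3 genes, which encode the autophagosome membrane protein, parted. Map1lc3a rose with the medium at 21% oxygen from 84.7 ± 10.9 to 208 ± 8.94 FPKM and was 54.7 ± 0.653 in hypoxic differentiation medium (-1.91 ± 0.11 against normoxia, limma adjusted p 1.18e-05). Map1lc3b fell from 133 ± 17.0 to 55.8 ± 1.85 FPKM and was 146 ± 9.64 in hypoxic differentiation medium (1.37 ± 0.10, adjusted p 4.7e-05). Bnip3 and Bnip3l, mitophagy receptor genes that are targets of both FoxO3 and HIF, were higher in hypoxic than in normoxic differentiation medium by 2.14 ± 0.16 (adjusted p 4.99e-05) and 2.28 ± 0.15 (adjusted p 2.4e-05). The lysosomal protease gene Ctsl, a classical atrophy gene, was 184 ± 3.22, 641 ± 5.75 and 236 ± 17.1 FPKM in normoxic growth, normoxic differentiation and hypoxic differentiation medium, high where Trim63 was high.

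Of 21 tested FoxO targets outside autophagy, 10 rose and 9 fell with the medium at 21% oxygen (all genes 25.5% and 41.0%), and 3 rose and 9 fell at 2% oxygen (all genes 23.3% and 17.6%), the latter 1 and 11 after median-of-ratios scaling. Hypoxia left 9 higher and 4 lower in growth medium (all genes 13.5% and 28.0%), or 11 and 3 after that scaling. The list median there was 0.46, or 0.57 scaled. In differentiation medium it left 9 higher and 7 lower (all genes 37.5% and 27.7%), or 5 and 8 after scaling. The cell cycle inhibitor gene Cdkn1a rose at 21% oxygen from 59.9 ± 6.43 to 965 ± 25.7 FPKM, the repressor gene Bcl6 from 10.9 ± 0.0141 to 67.9 ± 0.502 and the stress gene Gadd45a from 79.4 ± 8.83 to 348 ± 2.65. The sestrin gene Sesn1, the catalase gene Cat and the pyruvate dehydrogenase kinase gene Pdk4 fell, to 6.70 ± 0.0258, 11.7 ± 0.608 and 0.950 ± 0.0299 FPKM from 33.1 ± 0.213, 32.0 ± 0.0723 and 11.5 ± 0.766. In differentiation medium hypoxia raised Ccng2 from 21.8 ± 0.704 to 138 ± 22.1 FPKM (2.59 ± 0.12, limma adjusted p 5.34e-06) and Cat to 44.1 ± 0.239, and lowered Gadd45a to 37.4 ± 13.2 (-3.23 ± 0.21, adjusted p 2.61e-05) and Bcl6 to 13.0 ± 0.143 (-2.30 ± 0.07, adjusted p 9.46e-07).

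**Figure D4:**
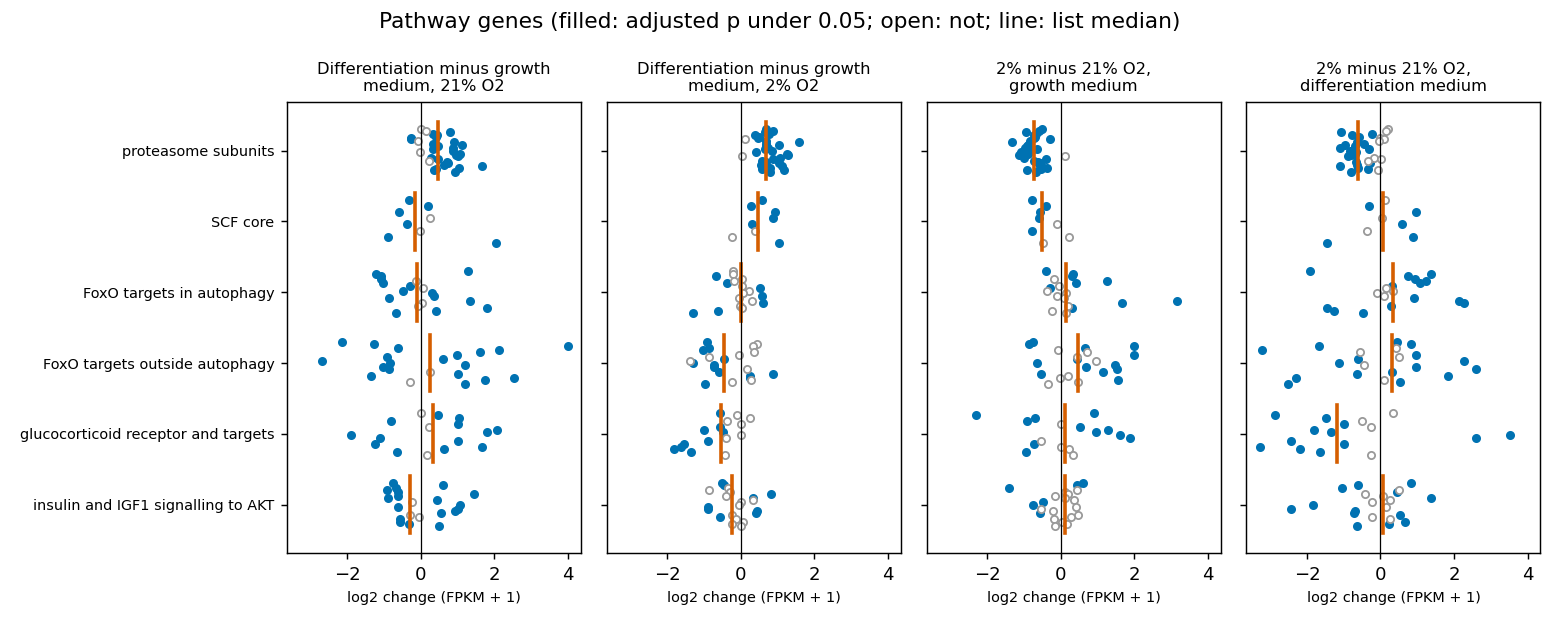
Fitted log2 change of each gene (point, x axis on the log2(FPKM + 1) scale) in 6 pathway lists for the 4 contrasts; filled points passed an adjusted p of 0.05 and the vertical line is the list median. Proteasome subunits have medians of 0.46 and 0.70 with the medium and -0.71 and -0.61 with hypoxia, while FoxO targets spread to both sides.

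Genes of insulin and IGF1 signalling, which restrains FoxO factors through AKT, were called in both directions. Of 21 tested, 8 rose and 10 fell with the medium at 21% oxygen (all genes 25.5% and 41.0%), and 4 rose and 5 fell at 2% oxygen (all genes 23.3% and 17.6%). With hypoxia 2 were higher and 4 lower in growth medium (all genes 13.5% and 28.0%), and 6 higher and 7 lower in differentiation medium (all genes 37.5% and 27.7%). The balance depended on scaling: in the same order, median-of-ratios scaling gave 8 and 6, 3 and 8, 6 and 4, and 3 and 10. Akt2, the AKT isoform gene most tied to insulin in muscle, was 56.1 ± 3.12 FPKM in normoxic growth medium and 118 ± 1.39 in differentiation medium at 21% oxygen, where hypoxia left 32.3 ± 0.703 (-1.84 ± 0.07 with hypoxia, limma adjusted p 2.77e-06). The kinase gene Sgk1, whose product also phosphorylates FoxO factors, rose to 43.6 ± 0.447 FPKM in normoxic differentiation medium from 21.1 ± 1.43 and was 7.54 ± 3.29 in the hypoxic one (-2.44 ± 0.24, adjusted p 0.000146). Of 13 tested FoxO modifiers and partners, 4 rose and 5 fell with the medium at 21% oxygen (all genes 25.5% and 41.0%), or 4 and 1 after median-of-ratios scaling, and 4 rose at 2% oxygen (all genes 23.3%). With hypoxia 5 were lower in growth medium (all genes 28.0%), or 2 higher and 2 lower after scaling. In differentiation medium 6 were higher and 1 lower (all genes 37.5% and 27.7%), or 2 and 2. The lower gene was Prmt1, an arginine methyltransferase that modifies FOXO1 (192 ± 9.92 to 52.9 ± 6.43 FPKM, -1.84 ± 0.11, adjusted p 1.48e-05), and the largest rise was in the 14-3-3 gene Ywhae (0.68 ± 0.08, adjusted p 0.000334).

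The list of glucocorticoid receptor and target genes includes Klf15 and Klf9 themselves. Of its 16 tested genes 8 were higher and 5 lower with the medium at 21% oxygen, where 25.5% and 41.0% of all genes were. At 2% oxygen 9 were lower, against 17.6% of all genes (median -0.53, all genes 0.07). With hypoxia 6 were higher and 5 lower in growth medium, against 13.5% and 28.0%. In differentiation medium 2 were higher and 10 lower, against 37.5% and 27.7% (median -1.17, all genes 0.15), or 2 and 11 after median-of-ratios scaling. Cebpd, a C/EBP factor gene, was 16.1 ± 5.98, 51.7 ± 2.25 and 4.43 ± 0.392 FPKM in normoxic growth, normoxic differentiation and hypoxic differentiation medium (-3.28 ± 0.22 with hypoxia, limma adjusted p 2.7e-05). Hsd11b1, whose enzyme regenerates active glucocorticoid, fell with hypoxia in differentiation medium from 7.24 ± 0.528 to 0.126 ± 0.0741 FPKM (-2.87 ± 0.13, adjusted p 4.75e-06). The 2 genes higher in hypoxic differentiation medium were the metallothioneins Mt1 and Mt2, by 3.53 ± 0.13 (adjusted p 1.97e-06) and 2.61 ± 0.24 (adjusted p 0.000111), which metals and hypoxia also induce.

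Branched-chain amino acid catabolism, a process KLF15 activates in muscle, had 13 tested genes. With the medium 6 rose and 4 fell at 21% oxygen, where 25.5% and 41.0% of all genes did, or 6 and 2 after median-of-ratios scaling. At 2% oxygen 1 rose and 4 fell, against 23.3% and 17.6%. Hypoxia left 7 lower and 1 higher in growth medium, against 28.0% and 13.5% (median -0.56, all genes -0.14). In differentiation medium 10 were lower, against 27.7% (median -1.07, all genes 0.15). Bcat2, the mitochondrial aminotransferase gene and a known KLF15 target, was 39.5 ± 0.472 FPKM in normoxic and 10.1 ± 0.407 in hypoxic differentiation medium (-1.87 ± 0.10, limma adjusted p 8.19e-06), and Dld, a subunit shared by several mitochondrial dehydrogenases, 170 ± 4.88 and 33.0 ± 3.31 (-2.33 ± 0.09, adjusted p 2.65e-06). In growth medium Bcat2 was 32.9 ± 3.81 FPKM in normoxia and 15.2 ± 0.24 in hypoxia, where Klf15 was higher. The part of Klf15 in these changes was not tested.

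The genes most alike in profile to each of the 7 were found by Pearson's r of log2(FPKM + 1) over the 8 libraries among the 7864 or 7865 genes that reached a mean of 10 FPKM in a group; the libraries fall into 4 groups, so a high r reflects few independent points. For Trim63 they were Galnt6, Gbp6 and Hfe2 (r of 0.9998, 0.9997 and 0.9997), all at 0.222 to 0.312 FPKM in normoxic growth medium and 32.1 to 86.6 in normoxic differentiation medium. For Fbxo32 they were Wnt10b (0.9973), which went from 29.0 to 3.44 FPKM with the medium at 21% oxygen, Hsd17b11 (0.9915) and Fstl1 (0.9895). For Foxo1 they were Dlc1 (0.9971), Ache (0.9876) and Cited2 (0.9869), and for Foxo3 1110002L01Rik (0.9943), Hist1h2be (0.9920) and the NAD synthesis gene Nampt (0.9912), at 9.07, 22.7, 40.0 and 70.9 FPKM in the order of groups that Foxo3 followed. Foxo4 was most like Mpst, Oxa1l and Serf1 (0.9772, 0.9746 and 0.9677), Fbxo30 like Nufip2, Eea1 and Pex3 (0.9734, 0.9332 and 0.9219), and the genes most like Klf15 included the clock-linked repressor gene Nfil3 (0.9914) and Mef2d (0.9854).

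The 2 hypoxic differentiation libraries differed in several of these genes. Foxo1 was 13.0 FPKM in A and 9.92 in B, Foxo4 11.2 and 7.96, Fbxo32 5.01 and 7.85 and Foxo6 2.82 and 4.83, while Foxo3 (45.2 and 44.7) and Klf15 (1.03 and 0.912) were close. Proliferation markers were higher in B (150 against 26.3 FPKM), and their part in these differences was not tested. Leaving out either library kept the call and sign of Foxo1, Foxo3, Trim63 and Klf15 for hypoxia in differentiation medium.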

How the data were processed

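RNA from 8 libraries of C2C12 cells was measured by RNA-seq with a strand-marking total RNA kit, per the labels' protocols. The deposited table holds FPKM values made by the authors, 1 column per library; the submitters' processing notes list STAR 2.5.1b, Cufflinks 2.2.1 and mm9, and annotation, use of strand in counting and scaling between libraries are not given in the sources used here. That the values are FPKM was read from the tool and from the values, which are not whole numbers.

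Columns were matched to samples by title. limma 3.58.1 (R 4.3.3) was fitted with an intensity trend on log2(FPKM + 1) over 12389 genes and all 8 libraries with 4 group means, leaving 4 residual and 2.61 prior degrees of freedom. Tests are two-sided and p-values adjusted over all tested genes of a contrast. They measure the spread between the 2 libraries of a group, pooled over all 4 groups and assumed equal in them. The hypoxic differentiation libraries, the least alike, therefore enter the SE of every contrast, also of those between other groups. The fit was tested on simulated data. Relative depth came from ratios of the smallest steps between libraries at values up to 0.5 FPKM; fragments of Trim63, Fbxo40 and the MuRF genes are the smallest whole numbers that gave their values to within 0.05 plus 0.4% for numbers up to 25, and absolute depth is otherwise unknown. Counting intervals are Clopper-Pearson at 95%.

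The genes and lists were chosen with earlier results of these data known. Named list genes are up to 3 largest rises and falls past the threshold with at least 5 FPKM in a group, for the medium at 21% oxygen and for oxygen in differentiation medium. A few genes that these rules name are not reported here. Promoters were read on GRCm38.p6, not the authors' build. Alternatives were 2 other scalings, a pseudocount of 0.1, no expression filter, only the libraries compared, a replicate block and each library left out.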

Additional observations from a re-analysis of the deposited data

Results flagged for a closer look

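The response to differentiation medium differed between 2% and 21% oxygen by limma's interaction test for 3 of the 7 tested genes and for all 5 relatives. The difference in response, 2% minus 21% oxygen on the log2(FPKM + 1) scale, was -4.84 for Trim63, -0.93 for Foxo1 and -2.30 for Klf15. It was -4.87 for Trim54, -2.53 for Trim55, -2.28 for Foxo6, 2.04 for Fbxo25 and -3.07 for Klf9. Of all tested genes 54.1% passed the same test.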

How the results depend on the processing

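The letters A and B did not pair the samples: the A minus B differences of the groups correlated at -0.166 to 0.042. With a replicate block, 5, 5, 4, 4 and 3 of the 7 tested genes passed (medium at 21% and at 2% oxygen, hypoxia in growth and in differentiation medium, interaction), the same counts as without it. Over all alternatives, 445 values of the 7 tested genes kept direction and side of the threshold, 18 newly passed, 15 no longer passed and 5 changed sign, of 483. Fitting only the libraries compared gave 2867 genes changed with the medium at 2% oxygen in place of 5073, and 3 of the 7 in place of 5. Leaving out 1 library gave 2503 to 6479 genes and 2 to 5 of the 7 for that contrast, 2989 to 6831 genes for hypoxia in growth medium (5135 with all libraries) and 3 to 5 of the 7 for the interaction, which was also 5 after median-of-ratios scaling. Results that changed sign had not passed the threshold with all libraries, and the values of opposite sign did not pass either. Without 1 library, hypoxia in growth medium gave -0.10 to 0.19 for Fbxo30 and -0.06 to 0.10 for Fbxo25. In such fits hypoxia in differentiation medium gave -0.15 to 0.41 for Fbxo32, and the interaction -0.40 to 0.04 for Foxo4. The ends of 0.41 and -0.40, both without replicate A of hypoxic differentiation medium, kept the sign of the full fit. Median-of-ratios scaling gave -0.04 for Fbxo32 with hypoxia in differentiation medium. The cause of these shifts was not tested. A lone library left in a group is assumed to vary like the others. Depth limits Trim63, Trim54 and Fbxo40 outside normoxic differentiation medium, and Trim55 at 2% oxygen, where it held 7 to 13 fragments per library. Klf15 was also low, at 0.321 to 4.09 FPKM over the libraries.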
